A study of Mus musculus with 15 samples.

Results

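The comparison described here set 3 RNA libraries labelled G3 mTerc-/-Puma-/- (replicates 1, 3 and 4) against 4 libraries labelled Puma-/- (replicates 1 to 4), so that mTerc was the gene that differed by label while Puma was deleted by label on both sides. These 7 libraries were part of 15, and 18219 autosomal genes that passed the filter on low counts were tested, of 40935 autosomal genes listed. All libraries came from femoral bone marrow of secondary recipients, from which cells negative for lineage markers had been taken by magnetic sorting. The G3 mTerc-/-Puma-/- donors were third-generation offspring without the telomerase RNA, whose telomeres had shortened through breeding, and who by label also carried the deletion of Puma. The Puma-/- donors carried the deletion of Puma alone and had telomerase. Donors were C57BL/6J mice aged 8 to 12 weeks, and their LSK cells (the lineage-negative, Sca-1 and Kit positive fraction that holds stem cells) had been passed serially through lethally irradiated CD45.1+ recipients and were analysed 16 weeks after the second transplantation. No sort for donor cells before the RNA preparation is stated in the sources used here, so RNA of host cells can be included. WT and G3 mTerc-/-Puma+/+ libraries (3 and 4), treated alike, are given beside the comparison where they show its context. Replicate 2 of G3 mTerc-/-Puma-/- is missing from the study's heatmaps and was kept out of the comparison. Its values are given separately. Nothing in the labels ties a library to 1 recipient, so the p-values measure the spread between these libraries.

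Telomerase rebuilds the ends of chromosomes, and cells that lack its RNA lose telomere sequence at each division until the ends are read as DNA breaks. Broken or bare ends stabilise p53, the transcription factor that turns on genes of cell cycle arrest and repair (Cdkn1a is the best known) and genes of cell death, among them Puma. PUMA, which is encoded by Bbc3, is a BH3-only protein that disables the survival proteins of the BCL2 family and thereby lets BAX and BAK open the mitochondria. The lineage-negative marrow holds stem cells, the early progenitors of all blood lineages and, at low frequency, precursors of platelets, which share many genes with the stem cells that make them.

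The libraries held 105447530 to 158367059 counts each. Replicates of a group differed by far more than counting error (mean chi-square per gene of 44.8 to 238, where counting error alone gives about 1), so no pair was 1 library deposited again, which says nothing of shared recipients. Kit, the stem cell factor receptor of early progenitors, lay between 113.7 and 164.4 normalized CPM in the 7 libraries (CPM, counts scaled to a common library total, here with TMM factors), beside 0.796 to 2.83 for Ms4a1, the CD20 gene of mature B cells. Lists of markers of mature cells were also read. The summed level of the monocyte list was 4319.1 to 7023.4 normalized CPM. That of the mature B and plasma cell list was 1673.4 to 3149.2 and that of the late neutrophil list 433.64 to 3770.6. Stem and multipotent progenitors had 644.86 to 915.6 (sums over lists of different genes, and not shares of cells). The mature B and plasma cell list includes H2-Ab1, which is also on the MHC class II list, at a mean of 380.5 in Puma-/-. These sums therefore do not show how many mature cells were present.

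The targeted genes were examined first. Terc, the telomerase RNA (ENSMUSG00000064796, chromosome 3 of GRCm38 from 96414437 to 96414859, minus strand), had 5, 4, 9 and 11 counts in the Puma-/- libraries. It had 1, 1 and 0 counts in replicates 1, 3 and 4 labelled G3 mTerc-/-Puma-/-. The groups did not overlap (p = 0.0286 by exact permutation, two-sided, which is the lowest that 35 splits can give), and a count of 0 allows up to 3 counts, or 0.0237 CPM in replicate 4, for counting error only. Bbc3 (ENSMUSG00000002083, chromosome 7 from 16308393 to 16318205, plus strand) went against the label. Its level was 5.15, 6.80, 5.02 and 5.05 normalized CPM in Puma-/-, against 17.0, 15.6 and 13.5 under the label G3 mTerc-/-Puma-/-. Every library with that label lay above every Puma-/- library, inside the range of WT (17.9 ± 7.27, SD, n = 3) and of G3 mTerc-/-Puma+/+ (16.9 ± 4.46, SD, n = 4), and replicate 2 had 16.1. Which part of Bbc3 the deletion removes is not given in the sources used here, and counts over the whole gene cannot place the reads within it. For this reason the 3 libraries are called by their label only, and every direction below holds for the libraries so labelled.

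Sex-linked transcripts also separated the groups, and the labels give no sex. Xist, the RNA that coats the silenced X, ran from 463.7 to 864.9 normalized CPM in the 4 Puma-/- libraries, which had at most 0.0446 CPM of Ddx3y from the Y chromosome. Replicates 1 and 4 of the labelled libraries had Xist at 659.5 and 443.3 with Ddx3y at 2.87 and 4.25, while replicate 3 had Xist at 0.386 and Ddx3y at 45.9. The Y-linked Uty followed Ddx3y, with 0.802, 12.9 and 1.34 in replicates 1, 3 and 4. Eif2s3y (3.13, 6.69 and 7.63) and Kdm5d (2.54, 4.01 and 4.29) did not set replicate 3 apart. Both lay below every WT library (24.1 to 62.1 and 13.1 to 27.3). A Y-linked signal was therefore present in the labelled libraries and absent from the Puma-/- ones. That difference and the mTerc label cannot be told apart in this comparison. With the Xist level as a covariate in the fit, 27 autosomal genes passed, 25 of them among those reported here. Replicates 1 and 4 held Y-linked transcripts with Xist near or inside the Puma-/- range, so this covariate cannot adjust for the Y-linked difference. All lists and counts below leave out the X and Y chromosomes.

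Between the groups 52 autosomal genes passed (edgeR's quasi-likelihood test, Benjamini-Hochberg adjusted p under 0.05 over all genes tested). Of these, 13 genes rose in the libraries labelled G3 mTerc-/-Puma-/- (0.0714% of the genes tested) and 39 fell (0.214%). Of the 13 rises 5 are on the list of known p53 targets, and of the 39 falls 10 are on the list of megakaryocyte and platelet genes. In all 52 the 3 libraries did not overlap the 4, while over all autosomal genes 3.9% lay wholly above and 5.57% wholly below. The median log2 fold change over all autosomal genes was 0.010, with 52.3% of genes above 0. At an unadjusted p under 0.05 there were 622 higher and 898 lower genes. The count rested on single libraries. It was 12 without replicate 3 and 21 without replicate 4 of the labelled libraries, 34, 26 and 28 without Puma-/- replicates 2, 3 and 4, and 81 and 84 without WT replicate 3 and G3 mTerc-/-Puma+/+ replicate 2, which enter only through the shared estimate of spread. The genes that passed without each of the 7 libraries in turn were Cdkn1a, Zmat3, Hmcn2 and Rbm8a among the rises and Vwf, Cavin2, Mrvi1, Il5ra, Gm6257, Gm10419 and 9430002A10Rik among the falls.

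**Figure D1:**
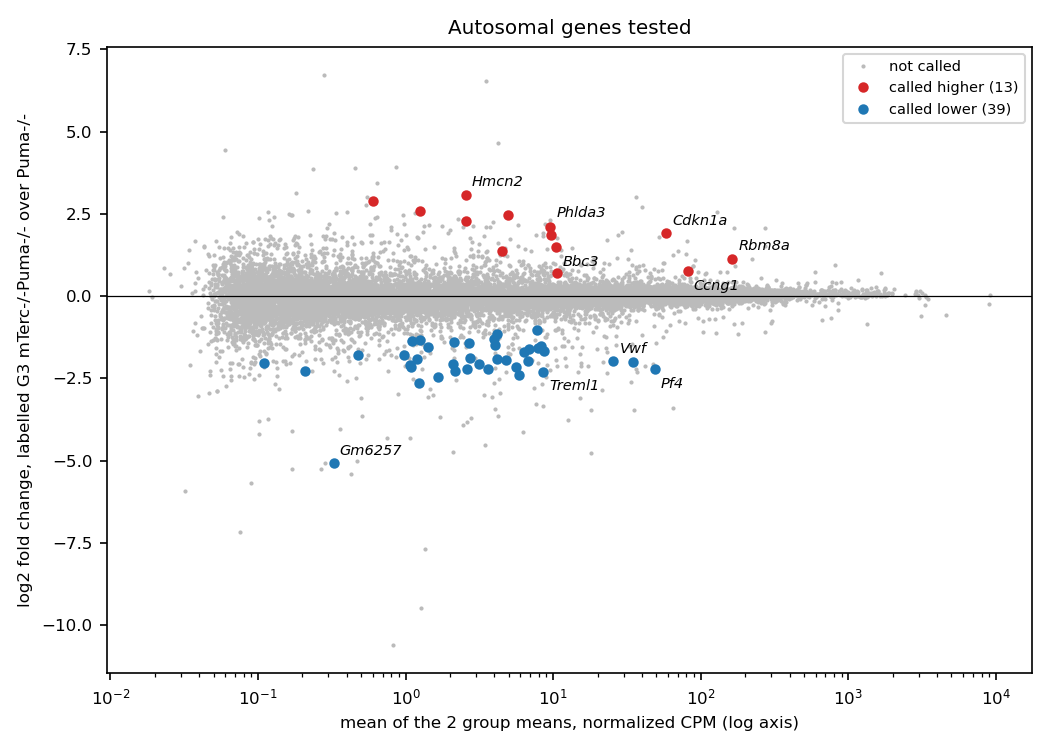
Log2 fold change of each autosomal gene tested (vertical axis, libraries labelled G3 mTerc-/-Puma-/- over Puma-/-) against the mean of the 2 group means in normalized CPM (horizontal log axis), with called genes in red (13 higher) and blue (39 lower). Called falls lie mostly between about -1 and -2.6, with Gm6257 at -5.07, and the grey points with larger folds did not pass the test.

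Genes of megakaryocytes and platelets had the most called members of the 51 lists examined. Of the 16 members of the megakaryocyte and platelet list, all tested, 10 fell and 0 rose, beside 0.214% of all autosomal genes that fell, and 15 had a log2 fold change below 0. The median of the list was -1.72, against 0.010 over all autosomal genes. Its summed level ran from 620.47 to 909.95 normalized CPM in the Puma-/- libraries and from 347.76 to 392.25 in the labelled libraries, without overlap, and from 364.69 to 551.83 in WT. In bulk RNA, fewer cells of a type and less RNA per cell cannot be told apart. The number of members called was 6 without Puma-/- replicate 3 and 6, 1 and 3 without replicates 1, 3 and 4 of the labelled libraries, at medians between -1.83 and -1.55. With the Xist covariate it was 5.

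Vwf, the blood glycoprotein that tethers platelets to damaged vessels (chromosome 6 from 125546774 to 125686679), stood at 32.4, 44.5, 46.9 and 39.6 normalized CPM in the Puma-/- libraries. It stood at 12.5, 7.93 and 10.6 in the labelled libraries, all of them under the lowest Puma-/- library. Its log2 fold change was -1.98 (SE 0.246, edgeR adjusted p = 0.00329), a fall that passed under each of 18 other settings of the analysis. The WT mean was between the groups at 16.8 ± 6.03 (SD, n = 3), with libraries from 9.85 to 20.6 that overlapped the labelled ones. The mean of G3 mTerc-/-Puma+/+ was 15.6 ± 2.10 (SD, n = 4).

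The receptor for Vwf on platelets is built from GP Ib alpha, GP Ib beta and GP IX, and all 3 of its genes tested here fell. Gp1ba had 11.6, 13.7, 16.4 and 11.6 normalized CPM in Puma-/- and 4.48, 4.09 and 3.90 in the labelled libraries (log2 fold change -1.68, SE 0.229, edgeR adjusted p = 0.00594). Gp9 had 7.94, 9.55, 14.6 and 8.97 against 3.55, 3.31 and 3.18 (log2 fold change -1.62, SE 0.253, edgeR adjusted p = 0.0143). In both genes the labelled libraries lay close together and below all of Puma-/-, of which replicate 3 was highest. Gp1bb also passed at -2.14 (SE 0.341, edgeR adjusted p = 0.0155), but 92.9% of its exon bases lie in exons of Sept5, so its counts are uncertain.

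Genes of proteins packed in platelet alpha granules fell as well. Pf4, platelet factor 4, had 63.2, 72.9, 116.1 and 67.8 normalized CPM in the Puma-/- libraries and 17.8, 15.1 and 18.6 in the labelled ones. The groups were far apart, and the log2 fold change was -2.22 (SE 0.308, edgeR adjusted p = 0.00594). Ppbp, a second granule chemokine, stood at 45.3, 44.6, 84.0 and 48.4 against 15.3, 15.5 and 10.5 (log2 fold change -2.01, SE 0.385, edgeR adjusted p = 0.0476). Treml1, a receptor of granule membranes, had 10.4, 11.6, 22.9 and 11.5 against 3.69, 2.31 and 2.63 (log2 fold change -2.29, SE 0.385, edgeR adjusted p = 0.0236). Mmrn1, which is not on the list and encodes multimerin, a granule protein that binds factor V, fell by 2.38 on the log2 scale (edgeR adjusted p = 0.0236). Puma-/- replicate 3 held the highest level of all 4 genes, and the labelled libraries stayed below the other Puma-/- libraries too.

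Genes of receptors and secretion proteins completed the list. Rab27b, a small GTPase of granule release, had 8.11, 9.30, 13.4 and 7.83 normalized CPM in Puma-/- and 3.47, 2.69 and 2.72 in the labelled libraries (log2 fold change -1.70, SE 0.275, edgeR adjusted p = 0.0166). Gp6, the collagen receptor, fell by 2.10 on the log2 scale (edgeR adjusted p = 0.0474), and F2rl2, a thrombin receptor, fell by 1.58 (edgeR adjusted p = 0.0284). The calls of Ppbp, Gp6 and F2rl2 were lost when any 1 of the 7 libraries was left out (highest edgeR adjusted p = 0.194, 0.229 and 0.171) and with the Xist covariate. The integrin Itga2b and the receptor Clec1b did not pass, at -1.15 (edgeR adjusted p = 0.0632) and -1.73 (edgeR adjusted p = 0.0886). Nfe2, a transcription factor of platelet formation that erythroid cells also express, had a log2 fold change of -0.10 (SE 0.0851, edgeR adjusted p = 0.821), and Selp, the gene of P-selectin, was the one member above 0 (0.37, SE 0.25, edgeR adjusted p = 0.745).

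**Figure D2:**
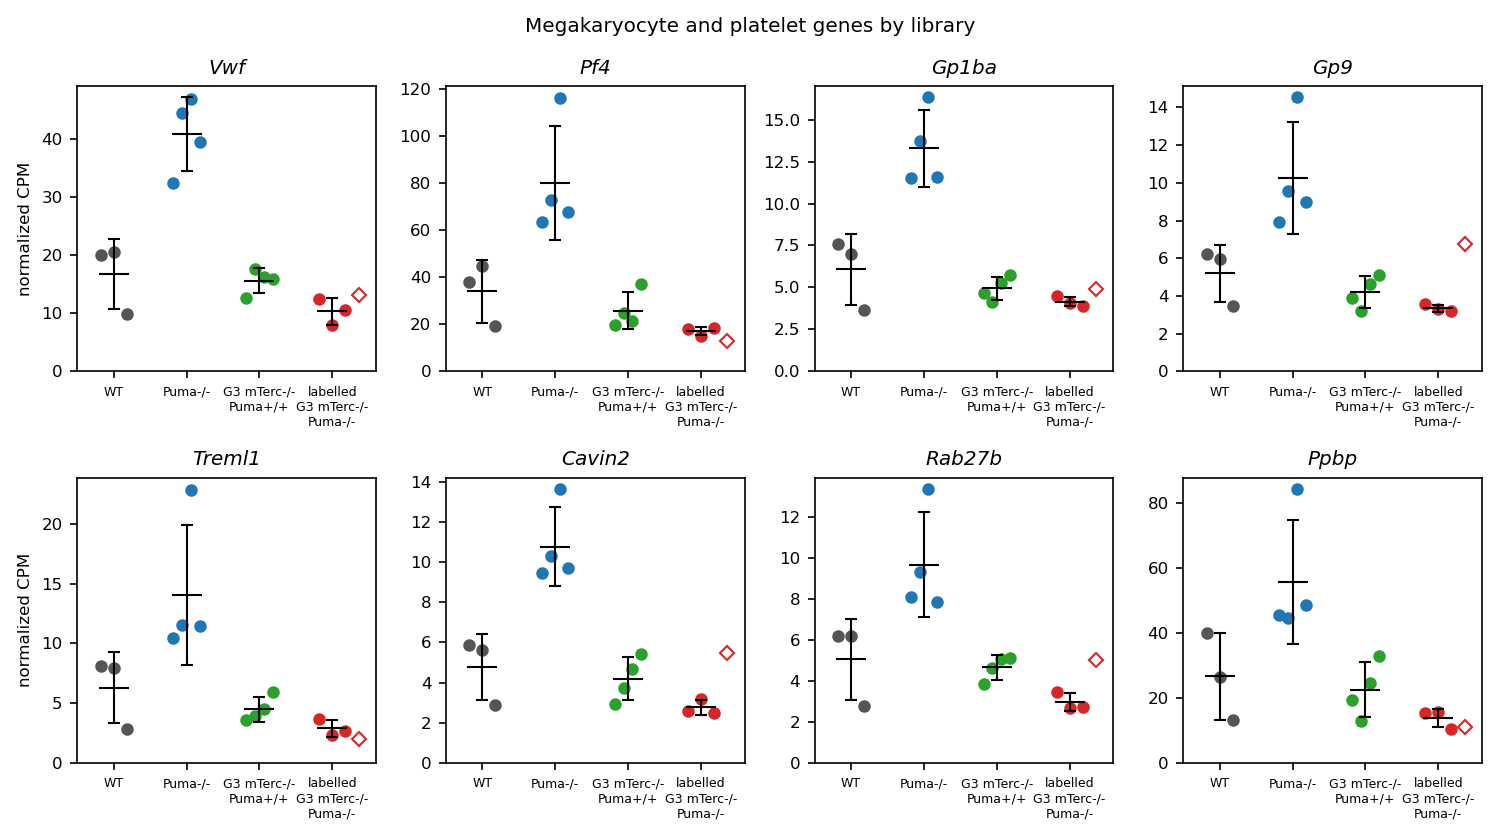
Normalized CPM (vertical axes from 0) of 8 megakaryocyte and platelet genes in each library by genotype, with the mean and SD as black bars. The open diamond is replicate 2 labelled G3 mTerc-/-Puma-/-, scaled with all 15 libraries and not part of the mean. Red points lie below every blue Puma-/- point in each panel, and the means of WT and G3 mTerc-/-Puma+/+ lie between.

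Several called genes outside that list are known from platelets or their signalling, and they were placed together after their values were seen. Cavin2, a coat protein of caveolae that is abundant in platelets, had 9.45, 10.3, 13.7 and 9.72 normalized CPM in Puma-/- and 2.58, 3.19 and 2.498 in the labelled libraries (log2 fold change -1.97, SE 0.270, edgeR adjusted p = 0.00594). Mrvi1, a target of the cGMP-dependent kinase, had 11.5, 11.8, 13.98 and 11.8 against 4.35, 4.34 and 4.11 (log2 fold change -1.52, SE 0.206, edgeR adjusted p = 0.00594). Both passed under all 18 other settings. The cyclic nucleotide phosphodiesterase genes Pde3a and Pde5a fell by 2.29 and 1.02 on the log2 scale (edgeR adjusted p = 0.0308 and 0.0311). Gnaz, a G protein subunit, fell by 2.05 and Trpc6, a cation channel, by 2.22 (edgeR adjusted p = 0.0167 and 0.0162), and Ly6g6f, a platelet surface protein, by 2.07 (edgeR adjusted p = 0.0476). The calls of Pde3a and Ly6g6f were lost when any 1 of the 7 libraries was left out (highest edgeR adjusted p = 0.156 and 0.224).

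The remaining falls were of mixed function. Gm6257, a processed pseudogene on chromosome 9, had 0.669, 0.478, 0.589 and 0.789 normalized CPM in Puma-/- and 0.00627, 0.0264 and 0.0234 in the labelled libraries. WT (0.0216 ± 0.00428, SD, n = 3) and G3 mTerc-/-Puma+/+ (0.0154 ± 0.00972, SD, n = 4) were as low, so the counts of this pseudogene were found in the Puma-/- libraries almost alone. The fitted log2 fold change was -5.07 (SE 0.435, edgeR adjusted p = 9.1e-05). The Puma-/- libraries held 287 counts in all and the labelled ones 7, a ratio of 36.5 per library total (95% interval 17.5 to 91.5, exact binomial, counting error only). Il5ra, the alpha chain of the interleukin 5 receptor on eosinophils, had 0.661, 0.718, 0.651 and 0.897 against 0.219, 0.246 and 0.172 (log2 fold change -1.78, SE 0.247, edgeR adjusted p = 0.00594). Replicate 2, at 0.671, lay inside the Puma-/- range for this gene. Timp3, an inhibitor of metalloproteinases, fell by 1.93 on the log2 scale (edgeR adjusted p = 0.00788), with 21.3% of its exon bases shared with Syn3. Kcnj5 (a potassium channel), Rbpms2 (an RNA-binding protein) and Gchfr (a regulator of tetrahydrobiopterin synthesis) fell by 2.21, 1.49 and 2.15 (edgeR adjusted p = 0.0131, 0.00672 and 0.015). Ankrd63 fell by 1.87 (SE 0.262, edgeR adjusted p = 0.00607), and the long non-coding RNAs Gm10419 and 9430002A10Rik by 2.62 and 1.92 (edgeR adjusted p = 0.00561 and 0.00661).

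Set beside the other genotypes, the group means of the falls lay on both sides of the WT mean. For all 39 genes that fell, the Puma-/- mean lay above the WT mean, and for 38 the labelled mean lay below it. These positions are a description, since the Puma-/- libraries also chose the genes. On the megakaryocyte and platelet list, the summed level of the labelled libraries (347.76 to 392.25 normalized CPM) overlapped that of WT (364.69 to 551.83). That of Puma-/- (620.47 to 909.95) lay above every WT and every G3 mTerc-/-Puma+/+ library (391.93 to 460.13 in the latter). Puma-/- was also the only group without a Y-linked signal. Ddx3y was at most 0.0446 there, 21.2 to 43.0 in WT and 42.6 to 48.0 in G3 mTerc-/-Puma+/+. The genotype and this sex-linked difference cannot be told apart.

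The rises included known targets of p53. Of the 34 members of the list of p53 targets, all tested, 5 rose and 0 fell, beside 0.0714% of all autosomal genes that rose, and 30 had a log2 fold change above 0. The list median was 0.31 against 0.010 over all autosomal genes. At an unadjusted p under 0.05, 15 members were higher, beside 622 of all 18219 autosomal genes. The 5 were Zmat3, Cdkn1a, Phlda3, Ccng1 and Bbc3, the last being a targeted gene. Their number was 3 without each Puma-/- replicate in turn, 2 without replicate 3 and 4 without replicate 4 of the labelled libraries, and 3 with the Xist covariate. Trp53 itself had 213.7, 215.4, 205.5 and 191.4 normalized CPM in Puma-/- and 213.5, 189.4 and 229.6 in the labelled libraries, with overlapping groups (log2 fold change 0.030, SE 0.0736, edgeR adjusted p = 0.947).

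Cdkn1a encodes p21, the inhibitor of cyclin-dependent kinases (ENSMUSG00000023067, chromosome 17 from 29090976 to 29100727). It stood at 26.8, 24.8, 23.6 and 23.6 normalized CPM in the Puma-/- libraries, a narrow range, and at 110.0, 87.8 and 79.2 in the labelled libraries. Each labelled library was thus several times above each Puma-/- library (log2 fold change 1.90, SE 0.265, edgeR adjusted p = 0.00594), and the rise passed under all 18 other settings. WT stood at 40.0 ± 17.2 (SD, n = 3) and G3 mTerc-/-Puma+/+ at 57.1 ± 16.3 (SD, n = 4). Of its exon bases, 7.68% are shared with another annotated gene.

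Zmat3, an RNA-binding zinc finger protein, had 4.41, 5.07, 3.05 and 4.13 normalized CPM in Puma-/- and 13.4, 18.99 and 13.2 in the labelled libraries (log2 fold change 1.87, SE 0.253, edgeR adjusted p = 0.00594). Phlda3, a pleckstrin domain protein that restrains AKT, had 4.30, 4.02, 2.69 and 3.54 against 11.95, 19.4 and 15.1 (log2 fold change 2.09, SE 0.300, edgeR adjusted p = 0.00686). In both genes replicate 3 was the highest labelled library and no library of one group reached the other. Ccng1, cyclin G1, rose less, from 61.0, 61.5, 58.6 and 61.8 to 90.1, 125.1 and 91.2 (log2 fold change 0.75, SE 0.129, edgeR adjusted p = 0.0253). Bbc3 rose by the values given above (log2 fold change 1.48, SE 0.266, edgeR adjusted p = 0.0345), and its call was lost when any 1 of the 7 libraries was left out (edgeR adjusted p between 0.0501 and 0.127), with log2 fold changes of 1.40 to 1.60.

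Members that did not pass held intermediate values. Bax, the effector that PUMA frees, had 67.8, 74.8, 88.0 and 70.0 normalized CPM in Puma-/- and 91.4, 119.2 and 120.9 in the labelled libraries, with no overlap (log2 fold change 0.56, SE 0.13, edgeR adjusted p = 0.0899, with 12.2% of its exon bases shared with Gm45808). Sesn2, a stress-induced regulator of mTORC1, had a log2 fold change of 0.63 (SE 0.15, edgeR adjusted p = 0.125). Mdm2, the ubiquitin ligase that removes p53, lay at 58.9 to 63.8 in Puma-/- and 68.7 to 79.2 in the labelled libraries (log2 fold change 0.21, SE 0.074, edgeR adjusted p = 0.408). Pmaip1, the gene of the BH3-only protein NOXA, ran from 19.98 to 28.3 in Puma-/- and had 64.6, 44.1 and 27.5 in the labelled libraries, so that its groups overlapped (log2 fold change 0.95, SE 0.50, edgeR adjusted p = 0.654). Zfp365, Epha2 and Plk2 had log2 fold changes of 2.37, 1.15 and 1.39 (edgeR adjusted p = 0.112, 0.0757 and 0.421). The 4 members below 0 (Sesn1, Xpc, Rrm2b and Ddb2) lay between -0.16 and -0.03.

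**Figure D3:**
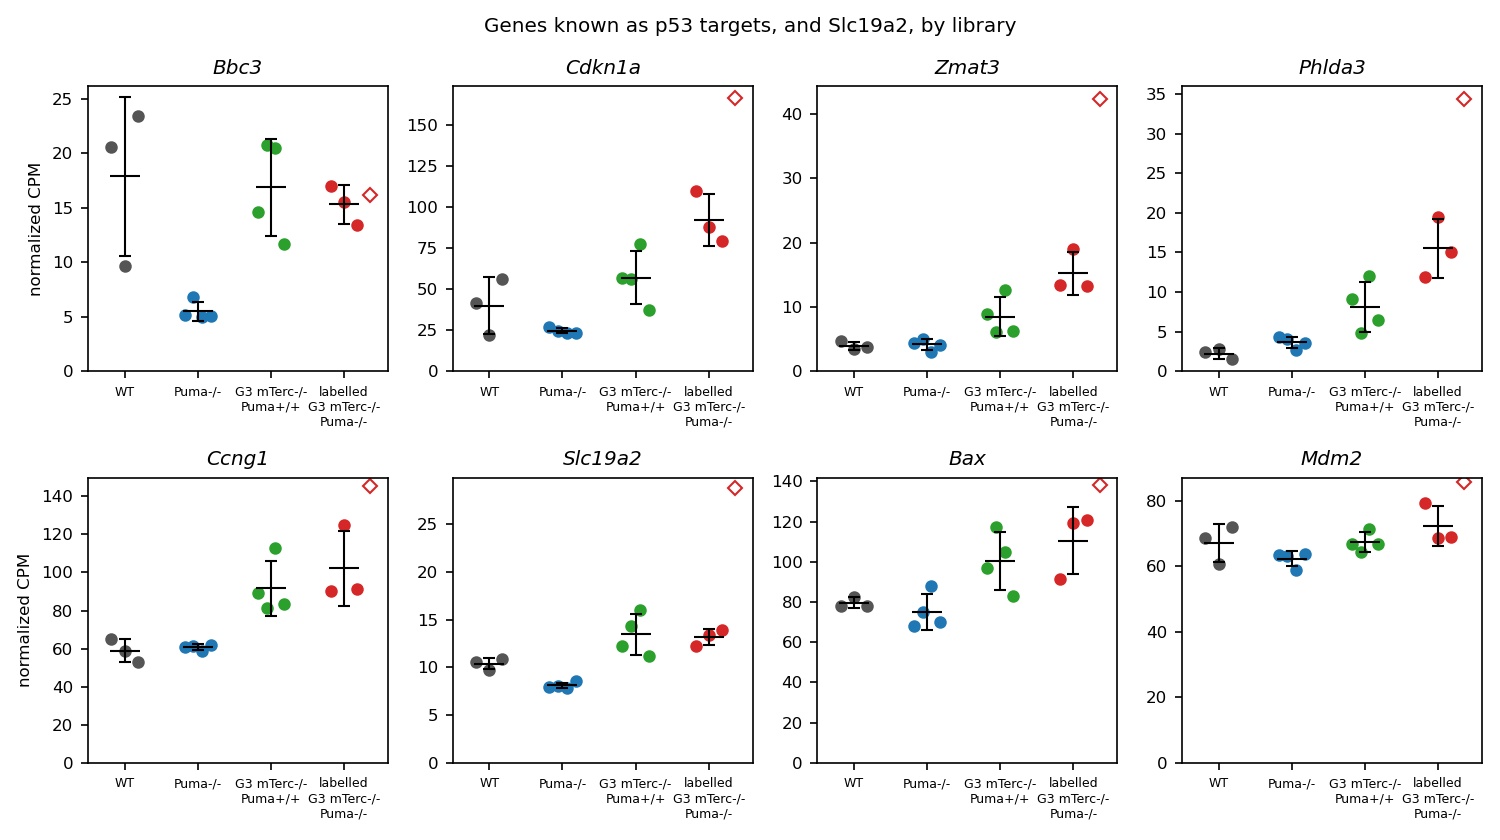
Normalized CPM (vertical axes from 0) of 7 genes known as p53 targets and of Slc19a2 in each library by genotype, with the mean and SD as black bars and replicate 2 labelled G3 mTerc-/-Puma-/- as an open diamond, scaled with all 15 libraries. Red points lie above every blue Puma-/- point in each panel, and in Bbc3 they lie at the level of WT.

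Because p53 binds DNA as pairs of half-sites around a CNNG core, the promoter windows of RefSeq (build GRCm38.p6, 250 bases before to 50 after each start) were searched for CATG, 6 bases and CATG on both strands. Of 9 genes that rose and have a window, 1 held this pair, Cdkn1a, in 1 of its annotated starts, beside 0.804% of 25748 autosomal genes. The wider CNNG, 6 bases, CNNG was in all 9, but also in 72.7% of all genes, so it separates little. The stretch of Cdkn1a from 250 to 11 bases before the start is shown because it holds the one strict match among the rises, with the match in capitals, on the plus strand at chr17:29090729-29090968.
Cdkn1a: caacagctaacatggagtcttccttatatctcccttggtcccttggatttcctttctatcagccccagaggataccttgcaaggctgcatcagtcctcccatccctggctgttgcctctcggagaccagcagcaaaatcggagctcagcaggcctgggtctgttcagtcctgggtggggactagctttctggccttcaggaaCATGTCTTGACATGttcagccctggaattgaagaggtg
For the falls, the letters AGATAA and TGATAA, the usual core bound by GATA factors, were searched in the same windows, a motif chosen after the values were seen. They were in 11 of 31 genes that fell and have a window (35.5%), in 5 of 11 of the megakaryocyte and platelet list (45.5%), in 0 of 9 that rose, and in 20.95% of all autosomal genes. Gp1ba is shown for its 2 matches, in capitals, 1 on each strand, at chr11:70638872-70639111 on the plus strand.
Gp1ba: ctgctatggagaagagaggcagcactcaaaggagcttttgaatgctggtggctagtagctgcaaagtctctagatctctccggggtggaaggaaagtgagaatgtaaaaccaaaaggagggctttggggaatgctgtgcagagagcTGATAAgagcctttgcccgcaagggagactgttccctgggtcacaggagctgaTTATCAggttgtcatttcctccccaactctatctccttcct
Both sets of matches describe letters in a window and no binding was measured.

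The other rises were of mixed function. Rbm8a, a core protein of the exon junction complex, had 91.4, 98.5, 121.4 and 98.4 normalized CPM in Puma-/- and 192.1, 237.4 and 247.4 in the labelled libraries (log2 fold change 1.14, SE 0.139, edgeR adjusted p = 0.00298). The gene lies 215.1 kilobases from Terc on chromosome 3, and it was the 1 gene called of 153 tested within 5 Mb of Terc (0.654%, beside 0.285% of all autosomal genes), where 14 had an unadjusted edgeR p under 0.05 (9.15%, beside 8.34%). It also rose in G3 mTerc-/-Puma+/+ against WT (log2 fold change 1.12, edgeR adjusted p = 0.00826), where telomerase RNA was likewise removed. Within 5 Mb of Bbc3, 0 of 117 genes passed, and 9 had an unadjusted edgeR p under 0.05 (7.69%).

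Hmcn2, the extracellular matrix protein hemicentin 2, had 0.385, 0.744, 0.526 and 0.499 normalized CPM in Puma-/- and 3.72, 5.74 and 4.25 in the labelled libraries, a wide separation at a low level (log2 fold change 3.08, SE 0.414, edgeR adjusted p = 0.00594). Inka2, an inhibitor of the kinase PAK4, had 0.929, 1.21, 0.714 and 0.680 against 3.58, 4.84 and 4.39 (log2 fold change 2.27, SE 0.330, edgeR adjusted p = 0.00726). Slc19a2, a thiamine transporter, rose from a range of 7.86 to 8.55 to 12.3, 13.4 and 13.95 (log2 fold change 0.71, SE 0.121, edgeR adjusted p = 0.0253). Tnfsf4, the OX40 ligand, and Pvt1, a long non-coding RNA next to Myc, rose by log2 fold changes of 2.60 and 1.38 (edgeR adjusted p = 0.0363 and 0.0451), and D630023F18Rik by 2.89 (edgeR adjusted p = 0.033).

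The same genes were read in G3 mTerc-/-Puma+/+ against WT, the comparison of mTerc where Puma was intact, which shares no library with the one above. There 7 of the autosomal genes passed (0.0384%), and 700 had an unadjusted p under 0.05. Of the 13 genes that rose, 11 had a log2 fold change above 0, with a median of 1.10, and Igll1 and Bbc3 did not. Phlda3 stood at 1.87 (SE 0.318), Inka2 at 1.85 and Zmat3 at 1.10, none of which passed (edgeR adjusted p = 0.106, 0.171 and 0.461). The 39 genes that fell had a median of -0.23 there, with 34 below 0. Vwf stood at -0.10 and Pf4 at -0.40, both with an edgeR adjusted p of 0.998. The megakaryocyte and platelet list had a median of -0.24 with 0 of 16 members called, and the p53 targets a median of 0.086 with 0 of 34 called. Rbm8a and Fcmr passed in both comparisons.

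**Figure D4:**
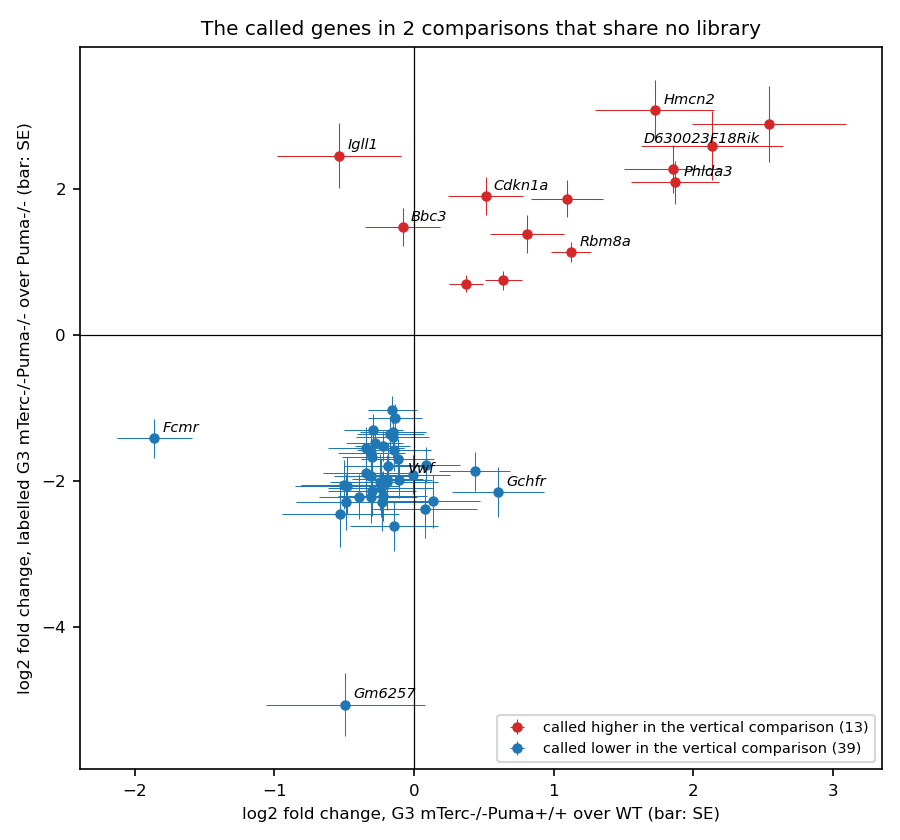
Log2 fold changes of the 52 called genes, libraries labelled G3 mTerc-/-Puma-/- over Puma-/- (vertical axis) against G3 mTerc-/-Puma+/+ over WT (horizontal axis), with bars of 1 SE, rises in red and falls in blue. Most blue points stand near 0 on the horizontal axis, and most red points lie to its right.

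The difference between the comparisons was tested gene by gene as the interaction of mTerc and Puma. It passed for 4 autosomal genes (0.022%), while 893 had an unadjusted p under 0.05. Ankrd63 was the only one also called above (interaction -2.31, SE 0.362, edgeR adjusted p = 0.0386). It had 3.77, 2.72, 5.90 and 4.81 normalized CPM in Puma-/- and 1.18, 1.22 and 1.12 in the labelled libraries, with 1.38 ± 0.108 in WT (SD, n = 3) and 1.87 ± 0.483 in G3 mTerc-/-Puma+/+ (SD, n = 4). Replicate 2, at 4.73, lay inside the Puma-/- range. Gm15446 and 1010001B22Rik, both on chromosome 5, were lower in every WT library than in every library of the other groups. 1010001B22Rik had at most 0.00927 normalized CPM in WT and 0.137 to 0.316 elsewhere. Gm15446 stood at 0.383 ± 0.0516 in WT (SD, n = 3) and at 7.68 and 8.40 on average in Puma-/- and the labelled libraries. Cep85, a centrosomal protein, stood at 82.3 in Puma-/- and 130.6 in the labelled libraries, where replicates 1 and 3 were at 158.7 and 145.5 and replicate 4 at 87.5, inside the Puma-/- range. For the platelet genes the interaction did not pass, so that Vwf (-1.88, edgeR adjusted p = 0.104) and Pf4 (-1.83, edgeR adjusted p = 0.397) are not shown to differ between the backgrounds. The megakaryocyte and platelet list had an interaction median of -1.51, with 13 of its 16 members at an unadjusted edgeR p under 0.05. The Puma-/- libraries enter both the interaction and the main comparison, so these values are no separate test.

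Markers of other marrow cells had at most 1 called member in a list. Of the 18 members of the B cell progenitor list, 1 rose (Igll1), with a median of 0.88. At an unadjusted p under 0.05, 11 were higher, beside 622 of all 18219 autosomal genes. Igll1, a part of the surrogate light chain of the pre-B cell receptor, had 2.37, 0.974, 1.56 and 1.21 normalized CPM in Puma-/- and 4.11, 16.3 and 4.89 in the labelled libraries (log2 fold change 2.46, SE 0.446, edgeR adjusted p = 0.0363). The libraries did not overlap, but replicate 3 was far above the others, and without it the log2 fold change was 1.56 (edgeR adjusted p = 0.152). Vpreb1 and Vpreb3, also on the list, stood at 2.25 and 2.33 and did not pass (edgeR adjusted p = 0.0578 for each), again with replicate 3 highest at 13.1 and 7.81. The summed level of the list was 158.67 to 198.25 in Puma-/- and 227.8 to 350.32 in the labelled libraries.

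Mature B cell genes lay the other way. Fcmr, the Fc receptor for IgM, had 3.78, 2.99, 4.17 and 4.70 normalized CPM in Puma-/- and 1.81, 1.22 and 1.36 in the labelled libraries (log2 fold change -1.42, SE 0.271, edgeR adjusted p = 0.0476), and it was the 1 called of 14 members of the mature B and plasma cell list, whose median was -0.71. Its call was lost without each of the 7 libraries in turn. Fcmr also fell in G3 mTerc-/-Puma+/+ against WT (log2 fold change -1.86, edgeR adjusted p = 0.023). Ms4a1 stood at -1.26 and did not pass (edgeR adjusted p = 0.0886).

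Genes of stem cells and multipotent progenitors had a median of -0.45 over 16 members, with 0 called. At an unadjusted p under 0.05, 7 were lower and 0 higher, beside 898 lower of all 18219 autosomal genes. In 7 of the 16 the labelled libraries lay wholly below, beside 5.57% of all autosomal genes. The summed level overlapped, at 702.55 to 915.6 normalized CPM in Puma-/- and 644.86 to 709.81 in the labelled libraries. Mycn, a transcription factor of early progenitors, had 4.67, 7.68, 4.91 and 5.14 normalized CPM in Puma-/- and 3.13, 1.70 and 2.43 in the labelled libraries, without overlap (log2 fold change -1.21, SE 0.26, edgeR adjusted p = 0.0843). Kit had 164.4, 161.6, 134.6 and 150.7 against 127.4, 116.9 and 113.7, likewise without overlap (log2 fold change -0.36, SE 0.10, edgeR adjusted p = 0.249). Procr, the endothelial protein C receptor of stem cells, stood at -0.68 (edgeR adjusted p = 0.227).

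Genes of red cell precursors had positive medians, and that of the terminal list rested in part on 1 library. The summed level of the erythroid progenitor list was 289.91 to 421.61 normalized CPM in Puma-/-. It was 450.26 to 515.81 in the labelled libraries, without overlap. The erythroid progenitor list had a median of 0.69 over 14 members and the terminal erythroid list 1.20 over 15, with 0 called in either. Of the 15, 12 were higher at an unadjusted p under 0.05, beside 622 of all 18219 autosomal genes. Hba-a2, an alpha globin, had 2.82, 5.08, 3.58 and 2.86 normalized CPM in Puma-/- and 22.9, 14.4 and 3.22 in the labelled libraries. Replicate 4 lay inside the Puma-/- range, and the gene did not pass (log2 fold change 1.91, SE 0.53, edgeR adjusted p = 0.214). The terminal erythroid median was 0.61 without replicate 1 of the labelled libraries and 3.31 with replicate 2 added, in which Hba-a2 reached 179.4.

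Granulocyte, dendritic and eosinophil lists spread to both sides. The late neutrophil list had a median of 1.13 over 15 members, with 0 called. At an unadjusted p under 0.05, 7 were higher, beside 622 of all 18219 autosomal genes. Its summed level overlapped, at 433.64 to 2134.3 normalized CPM in Puma-/- and 1559.3 to 3770.6 in the labelled libraries. Padi4, an enzyme that citrullinates histones in neutrophils, stood at 0.71 (SE 0.17, edgeR adjusted p = 0.12). The plasmacytoid dendritic list had a median of 0.48 over 12 members, all above 0, and the classical dendritic list -0.45 over 10 members, all below 0, with 0 called in each. Of 10 eosinophil genes Il5ra fell, and Epx, the eosinophil peroxidase, stood at -1.18 (SE 0.25, edgeR adjusted p = 0.0728). The mast cell and basophil list had a median of -0.42 over 14 members. Lists of monocytes, resident macrophages, primary granule progenitors, T and NK cells, and stromal and endothelial cells had medians between 0.0039 and 0.41, with 0 called. How far the mixture of cells accounts for the called genes was not tested.

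**Figure D5:**
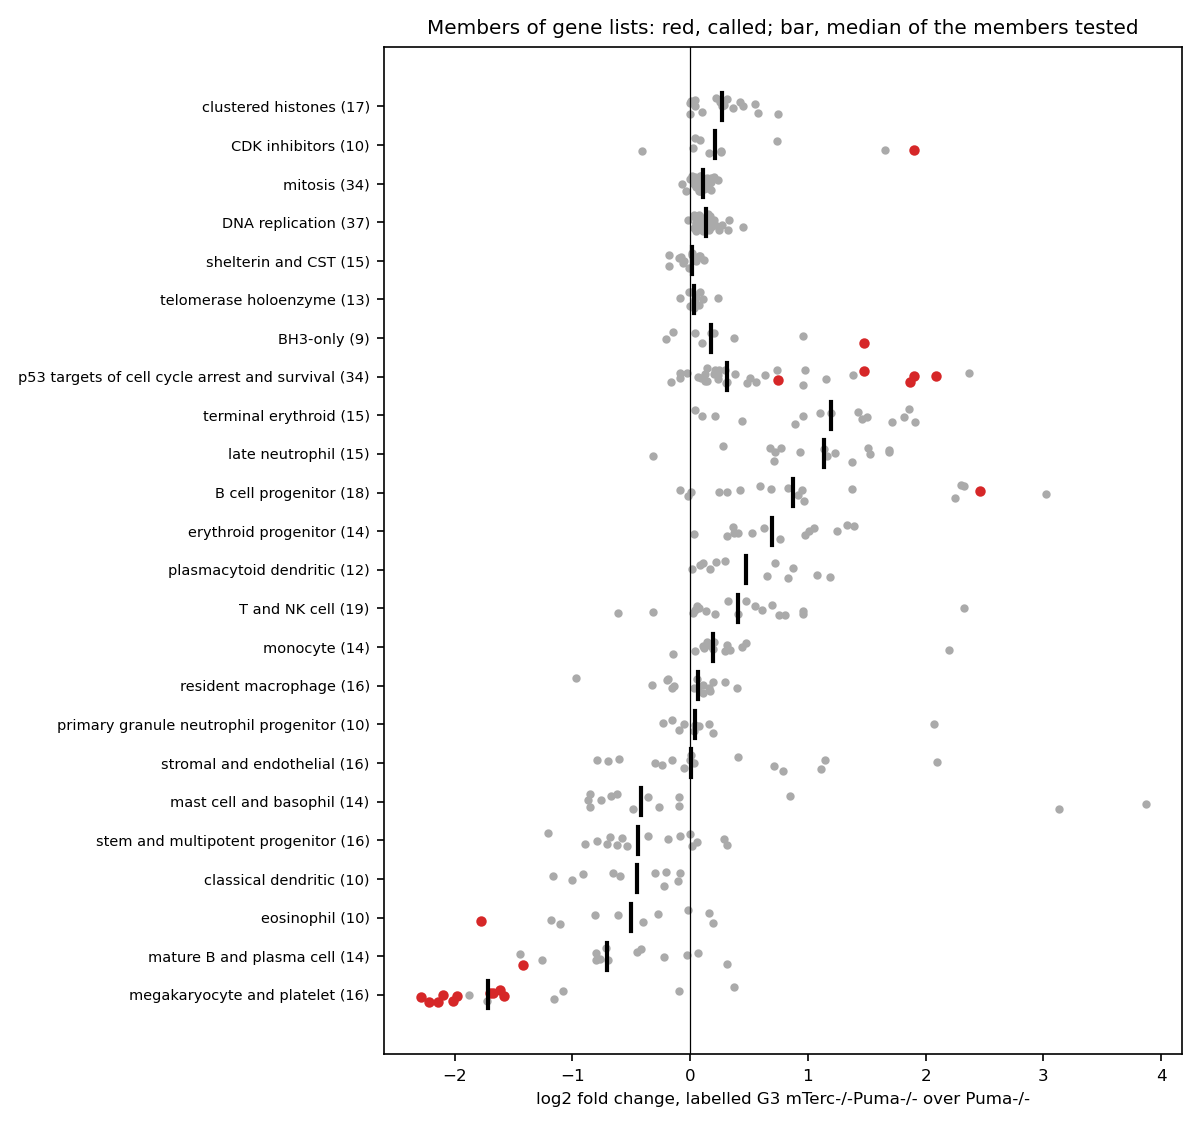
Log2 fold change of each tested member (points, libraries labelled G3 mTerc-/-Puma-/- over Puma-/-) of 16 marker lists and 8 pathway lists, with the number tested in brackets, called members in red and the list median as a black bar. Called members are gathered in the megakaryocyte and platelet list (10) and the list of p53 targets (5), and other lists have at most 1.

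Cell death genes other than Bbc3 did not pass. Of 9 BH3-only genes 1 rose, Bbc3, with a list median of 0.18. The BCL2 and BAX family (10 members, median 0.0086) and the caspases with the apoptosome (17 members, median 0.057) had 0 called. Among 10 inhibitors of cyclin-dependent kinases 1 rose, Cdkn1a, and Cdkn2a, which encodes p16 and p19ARF, had 0.318, 0.275, 0.446 and 0.326 normalized CPM in Puma-/- and 0.426, 2.09 and 0.718 in the labelled libraries, with overlap (log2 fold change 1.65, SE 0.55, edgeR adjusted p = 0.375).

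Telomere and DNA repair genes stood near 0. The telomerase holoenzyme (13 members, median 0.033), shelterin and CST (15 members, median 0.017), DNA damage signalling and homologous repair (32 members, median 0.054) and end joining (14 members, median 0.026) had 0 called in either direction. Genes of DNA replication were above 0 in 36 of 37 members with a median of 0.13, and genes of mitosis in 31 of 34 with a median of 0.11, again with 0 called. The rise of Cdkn1a thus stood beside no called fall among the cell cycle genes listed.

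Inflammatory, metabolic and stress lists also had no called member. Type I interferon-stimulated genes had a median of 0.18 over 32 members, NF-kB subunits and targets 0.18 over 32, immediate early genes 0.39 over 25, secreted factors of senescent cells 0.31 over 23, MHC class I genes 0.16 over 17 and MHC class II genes -0.39 over 13. The nuclear genes of the respiratory chain were above 0 in 39 of 39 members with a median of 0.14, while the 13 mitochondrially encoded ones were all below 0 with a median of -0.38. Members of such a list move together, and the summed levels overlapped between the groups. The nuclear sums were 6251.1 to 7924.1 normalized CPM in Puma-/- and 6619.1 to 8274.9 in the labelled libraries. The mitochondrial sums were 64655 to 100200 and 47783 to 69828. Cholesterol synthesis (0.18), the unfolded protein response (0.14) and oxidative stress (0.12) had small positive medians, and glycolysis (0.065) and ribosomal proteins (0.033) lay close to 0.

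Replicate 2 with the same label, which took no part in choosing the 52 genes, was read against the Puma-/- libraries. It lay beyond every Puma-/- library in the same direction for 12 of the 13 genes that rose and 34 of the 39 that fell, beside 32.9% of all autosomal genes that it had above and 33.4% that it had below every Puma-/- library. Scaled with all 15 libraries, it had 166.6 normalized CPM of Cdkn1a, 42.4 of Zmat3 and 34.4 of Phlda3, above every other library. It had 13.1 of Vwf and 12.9 of Pf4, below every Puma-/- library. Igll1, at 0.981, was the rise it did not share.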

How the data were processed

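RNA of lineage-negative marrow cells was sequenced from TruSeq Stranded mRNA libraries. Per the labels and methods, the authors trimmed with Trimmomatic 0.38, aligned with STAR 2.5.2b to GRCm38 and deposited raw counts per gene for all 15 libraries. The annotation release and the strand setting are not given in the sources used here, so overlapping genes cannot be told apart. Symbols and places came from GENCODE M21, and 97 tested genes had no place there. From the counts, edgeR 4.0.16 (R 4.3.3) fitted all 4 genotypes over 14 libraries (TMM, filterByExpr, 18983 genes, quasi-likelihood test, Benjamini-Hochberg, threshold 0.05), and the SE is the log2 fold change over the root of F. The fit was tested on simulated counts. The members and the gene lists were chosen with earlier results of these data known. Genes named were the targeted and sex-linked genes, up to 15 per direction by p among called genes without overlap, Trp53 and its listed targets, up to 4 per list by p, called genes within 5 Mb of a targeted gene, and interaction calls. Other called genes, and list members further down by p, were named after their values were seen. Alternatives used DESeq2 1.42.0, limma 3.58.1, other scaling, filters, samples and covariates. Leaving out WT and G3 mTerc-/-Puma+/+ libraries was chosen after seeing the data. Intervals and floors cover counting error only. Results on some listed genes and 1 list are not reported here.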

Additional observations from a re-analysis of the deposited data

Results flagged for a closer look

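In 13 of 66 named autosomal genes, 1 of the 4 Puma-/- libraries lay far from the other 3. Chance flags about 1 in 20 groups of independent values. That rate does not apply to genes that share a high library or were called from these same values. Puma-/- replicate 3 was the high library for 10 of them, all of them called, with 13.98 normalized CPM of Mrvi1, 7.93 of Rbpms2, 7.10 of Gnaz, 15.3 of F2rl2, 13.95 of Gp1bb, 5.74 of Ly6g6f, 22.9 of Treml1, 13.5 of Pde5a, 84.0 of Ppbp and 5.27 of Pde3a. These 10 genes fell in the labelled libraries, and the other Puma-/- libraries were also above the labelled ones for each of them. The same library was low for Mdm2 at 58.9, and Puma-/- replicate 2 was high for Bbc3 at 6.80 and for Mycn at 7.68. Without replicate 3, 26 autosomal genes were called in place of 52.

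The interaction test, which compares the mTerc comparisons as labelled, passed for Gm15446 (-4.44 on the log2 scale), 1010001B22Rik (-5.92), Cep85 (1.65) and Ankrd63 (-2.31). Replicate 2 labelled G3 mTerc-/-Puma-/-, which was kept out of the comparison, lay beyond every Puma-/- library in the called direction for 46 of the 52 genes.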

How the results depend on the processing

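With the label G3 mTerc-/-Puma-/- against Puma-/-, 52 genes were called, and the number was 84 in a fit of the compared genotypes alone, 267 with DESeq2 and 27 with the Xist covariate. Leaving out 1 library of any genotype gave 12 to 84. Under the other scaling, filter, library and test settings it lay between 43 and 69. All 52 genes kept their direction, 9 passed under every setting that tested them other than those chosen after seeing the data, 11 passed without each of the 7 libraries in turn and 11 in none of those 7 fits. The cause was not tested, beyond the fewer libraries in a fit. The count for G3 mTerc-/-Puma+/+ against WT was 7, and it was 4 with all 15 libraries, 3 in a fit of the pair alone, 44 with DESeq2 and 1 to 8 without 1 library. The interaction count was 4, and it was 7 with no count filter, 57 with DESeq2, 2 with limma-voom, 2 with autosomal genes alone and 1 to 5 without 1 library. With a replicate block in the fit 15 genes were called, all of them among the 52. Same-numbered libraries had correlations of -0.0345, -0.00165 and 0.0284 in their deviations, beside -0.186 to 0.238 for libraries of different numbers. So few correlations cannot tell whether a number marks a shared batch. Of 51 list medians, 15 had the other sign in at least 1 setting, and these were at most 0.39 in size. For 7 the change was also at least 1 SD between libraries. This was so with all 15 libraries for monocytes (-0.171), nucleic acid sensing (-0.0563), PGC-1 and mitochondrial biogenesis (-0.0171) and growth factor receptors (-0.0881). It was so without replicate 1 of the labelled libraries for shelterin and CST (from -0.0407 up to 0.034 over the libraries left out), NF-kB (-0.0553 to 0.265), immediate early genes (-0.128 to 0.547) and PGC-1 and mitochondrial biogenesis (-0.0208 to 0.0591). A count of 0 allows 0.0189 to 0.0285 CPM in the 7 libraries, which limits what can be said of Terc and Gm6257.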

Other observations

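Lists not described above gave these values for the label G3 mTerc-/-Puma-/- over Puma-/-. Transcription factors of blood lineages had a median log2 fold change of -0.048 over 27 members and 0 called, with Tal1, a factor shared by stem, erythroid and megakaryocyte cells, at -0.43 (SE 0.12, edgeR adjusted p = 0.237) and Pax5, of B cells, at 1.37 (SE 0.58, edgeR adjusted p = 0.548). Receptors for haematopoietic growth factors had a median of 0.041 over 20 members and 0 called, and Tek, the angiopoietin receptor of stem cells and endothelium, stood at -1.38 (SE 0.35, edgeR adjusted p = 0.153). Of 20 regulators of p53, Ccng1 was the one called. Clustered histone genes had a median of 0.27 over 17 members, STAT feedback genes 0.097 over 14, Hox and Meis genes 0.033 over 20, interferon-gamma-induced GTPases 0.088 over 17, heme synthesis genes 0.064 over 14, cytosolic nucleic acid sensors 0.028 over 16 and mitochondrial biogenesis genes 0.034 over 13, each with 0 called.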
